A study of Mus musculus with 6 samples.

Results

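The lineage homeobox and T-box factors are 48 transcription factor genes that give embryonic mesoderm, limb, somite and neural crest tissues their identity. Their open chromatin was compared between day 1 and day 0 of brown adipocyte differentiation, in mouse precursors of brown fat. The members came from a fixed list of gene names and not from measured values. Earlier results of these data were known when that list was chosen. A peak belonged to a member when its summit lay nearest to an end of that gene, among 21883 protein-coding genes, and at most 100 kb away. Peaks 1 kb or less from an end were called gene-end peaks and were kept apart from farther ones. All 48 members were found in the gene table, and 208 of the 68913 regions of the series belonged to them.

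The assay was ATAC-seq, which reads open DNA from the places where a transposase can cut it and attach adapters. The day 1 group held 3 libraries of cells labelled brown pre-adipocyte on day 1 of brown adipocyte differentiation, and the day 0 group 3 libraries of cells labelled brown pre-adipocyte and WT. All 6 carry BAT as source and as cell line, and the day 1 labels give no genotype. The series' title concerns deletion of RUNX1 or RUNX2. No library used here is labelled as deleted, but the genotype of the day 1 cells cannot be read from the labels. A difference in genotype between the days could not be told apart from the day. Whether the 3 replicates of a day were separate cultures is not stated in the labels, so p-values reflect only how far these libraries scatter, and that scatter may be technical. The cells were measured in bulk, so fewer cells with an open site and less opening per cell cannot be told apart.

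Homeobox proteins bind short AT-rich sites through a homeodomain, while T-box, paired-box, zinc finger and basic helix-loop-helix proteins use other DNA-binding folds. Their combined expression marks the body position and germ layer from which a mesenchymal cell came, and much of it persists in adipose precursors. Brown fat of the back shares a somite origin with skeletal muscle and passes through progenitors that express Myf5, Pax7 and En1. Zic1 and Lhx8 are used as markers of classical brown fat, Tbx1 of beige fat and Tcf21 of white fat.

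Libraries differed in depth along with the day. Values per library are given in the order of replicates 1, 2 and 3 throughout. Fragment totals were 4919755, 5603667 and 7302457 on day 1, against 11011889, 8127635 and 9160156 on day 0. The deposited lists held 20069, 23274 and 12556 peaks on day 1, against 55511, 41993 and 39211 on day 0. Day 1 replicate 3 stood apart, with the shortest list and a median summit of 1.78 fragments per 1000000 over the 9136 regions called in all 6 libraries, against 2.62 to 3.94 in the other libraries. Depth and day cannot be told apart in presence or absence calls, so each was also made on equal lists, the 12556 strongest peaks of each library by q. Of 13 listed brown pre-adipocyte markers, 5, 6 and 3 had a gene-end peak on day 1, against 8, 7 and 6 on day 0, and in the equal lists 3, 4 and 3 on day 1, against 4, 4 and 3 on day 0. Among them Pdgfra, Zfp423, Dlk1, Cd34 and Thy1 had none in any library, and Pparg, Ebf2, Ebf1, Cebpa, Cebpb, Cebpd, Pdgfrb and Ly6a had one in at least 1. Of the markers of other cells, the highest count in a library was 2 of 7 for myoblast, 1 of 6 for endothelial, 2 of 7 for immune, 1 of 5 for neural and 0 of 4 for epithelial genes. Myf5, Myog, Pax7 and Des had no gene-end peak in any library. Of the same myoblast list, Pax3 had one in all 6 libraries, Myf6 in 1 day 1 library and Myod1 in 1 day 0 library.

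Start-site windows of 6 members show the sequences behind the calls, and were chosen to span windows under a peak in every library, in some and in none. Each runs from 250 bases before to 50 bases after the RefSeq start on GRCm38.p6, 5′ to 3′ on the gene's strand. Capitals mark the E-box CANNTG, the site of basic helix-loop-helix proteins, and the homeodomain core TAAT, searched on both strands so that ATTA also counts. The windows are Pax9 at chr12:56695221-56695520 (+), Tbx18 at chr9:87731211-87731510 (-), En1 at chr1:120602237-120602536 (+), Zic1 at chr9:91365719-91366018 (-), Twist2 at chr1:91801211-91801510 (+) and Myf5 at chr10:107486085-107486384 (-).
Pax9: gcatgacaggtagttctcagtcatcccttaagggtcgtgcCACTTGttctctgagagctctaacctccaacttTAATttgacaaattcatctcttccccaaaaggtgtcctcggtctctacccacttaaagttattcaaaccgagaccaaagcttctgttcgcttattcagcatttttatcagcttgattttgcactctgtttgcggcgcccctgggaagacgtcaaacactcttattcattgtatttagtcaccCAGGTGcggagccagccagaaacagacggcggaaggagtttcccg
Tbx18: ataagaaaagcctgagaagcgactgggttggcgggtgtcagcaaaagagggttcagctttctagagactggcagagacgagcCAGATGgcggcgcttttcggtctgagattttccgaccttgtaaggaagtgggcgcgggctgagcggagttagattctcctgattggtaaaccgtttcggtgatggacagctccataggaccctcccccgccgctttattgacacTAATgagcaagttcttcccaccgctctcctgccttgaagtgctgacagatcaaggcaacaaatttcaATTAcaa
En1: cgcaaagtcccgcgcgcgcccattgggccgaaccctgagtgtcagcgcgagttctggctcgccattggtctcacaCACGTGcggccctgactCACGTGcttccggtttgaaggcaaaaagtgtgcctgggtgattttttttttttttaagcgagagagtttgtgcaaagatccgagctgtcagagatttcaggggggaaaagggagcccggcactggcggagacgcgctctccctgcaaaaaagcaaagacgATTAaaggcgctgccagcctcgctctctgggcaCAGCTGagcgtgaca
Zic1: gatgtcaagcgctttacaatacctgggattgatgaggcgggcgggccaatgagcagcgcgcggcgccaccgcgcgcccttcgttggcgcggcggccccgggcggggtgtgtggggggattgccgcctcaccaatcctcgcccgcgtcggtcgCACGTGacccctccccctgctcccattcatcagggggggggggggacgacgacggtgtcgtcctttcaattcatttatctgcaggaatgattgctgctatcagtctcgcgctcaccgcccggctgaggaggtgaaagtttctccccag
Twist2: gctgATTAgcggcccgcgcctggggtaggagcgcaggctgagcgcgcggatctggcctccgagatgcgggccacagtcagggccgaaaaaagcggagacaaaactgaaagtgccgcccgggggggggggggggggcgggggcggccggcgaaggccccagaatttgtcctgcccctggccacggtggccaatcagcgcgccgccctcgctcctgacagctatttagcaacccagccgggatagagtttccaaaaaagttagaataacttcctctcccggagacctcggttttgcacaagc
Myf5: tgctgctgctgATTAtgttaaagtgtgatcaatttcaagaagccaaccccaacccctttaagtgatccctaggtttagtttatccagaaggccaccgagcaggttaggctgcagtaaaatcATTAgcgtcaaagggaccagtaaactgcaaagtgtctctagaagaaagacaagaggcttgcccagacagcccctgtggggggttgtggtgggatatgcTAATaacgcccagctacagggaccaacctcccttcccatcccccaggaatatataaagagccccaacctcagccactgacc
The first 3 windows and that of Twist2 lay under a peak in all 6 libraries. That of Zic1 did so in 2 of 3 day 1 and 3 of 3 day 0 libraries, and that of Myf5 in none.

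These windows differed in composition and in the motifs they hold. GC content was 47.0% for Pax9, 51.7% for Tbx18, 57.0% for En1, 65.3% for Zic1, 64.7% for Twist2 and 49.7% for Myf5. The E-box occurred 3 times in the En1 window, 2 times in that of Pax9, 1 time each in those of Tbx18 and Zic1, and not at all in those of Twist2 and Myf5. The homeodomain core occurred 3 times in the Myf5 window, 2 times in that of Tbx18, 1 time each in those of Pax9, En1 and Twist2, and not in that of Zic1. The RUNX core TGTGGT, searched on both strands and left in lower case here, occurred 1 time in the Myf5 window and in none of the other 5. The promoter table covers 34 of the 48 members with 39 windows, and 17491 coding genes with 21262 windows. An E-box stood in 15 of the 39 member windows (38.5%), against 69.0% of all windows, and a homeodomain core in 43.6%, against 51.8%. The RUNX core stood in 3 member windows (7.69%), against 15.0% of all. Median GC was 60.7% in the member windows and 56.3% in all windows. Among member windows it was 58.7% where all 6 libraries had a peak (10 windows of 9 genes), 65.3% where 1 to 5 had one (15 windows) and 58.7% where none had (14 windows). A match is a description of these letters and was not tested as a binding site.

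The first question was how many of these factors had an open gene end on each day. In the deposited lists a gene-end peak stood in every day 1 library for 13 of 48 members (27.1%), against 24.3% of all coding genes, and in every day 0 library for 19 members (39.6%), against 36.2%. The same 13 members had one in all 6 libraries (27.1%, against 23.5% of coding genes). They were Tbx3, Tbx18, Meis1, Meis2, Irx3, Irx5, Six2, Six4, Pax3, Dlx2, En1, Twist1 and Twist2. Tbx2, Tbx15, Dlx5, Msx1, Msx2 and Zic1 were added on day 0. Another 19 members (39.6%) had no gene-end peak in any library, against 49.8% of coding genes. No test was made over the members.

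Per library, 18, 18 and 14 members had a gene-end peak on day 1 (37.5%, 37.5% and 29.2%), against 26, 23 and 20 on day 0 (54.2%, 47.9% and 41.7%). All coding genes had shares of 34.2%, 37.0% and 27.6% on day 1, against 45.3%, 41.7% and 39.8% on day 0. In the equal lists the members' shares were 33.3%, 22.9% and 29.2% on day 1, against 25.0%, 25.0% and 20.8% on day 0, so the ranges of the days overlapped once list length was the same. All coding genes then had 27.4%, 29.1% and 27.6% on day 1, against 23.2%, 23.1% and 22.1% on day 0, so every day 1 share was above every day 0 share. A gene-end peak in every library of the day was left for 9 members on day 1 (18.8%, against 21.2% of coding genes) and 7 on day 0 (14.6%, against 17.6%), and 30 members had none in any library (62.5%, against 63.4%). The 7 with one on day 0 were Tbx3, Tbx18, Meis1, Meis2, Irx3, Six4 and Pax3, and day 1 added Irx5 and Six2. Without day 1 replicate 3 and with lists lengthened to 20069 peaks, both counts were 14.

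**Figure D1:**
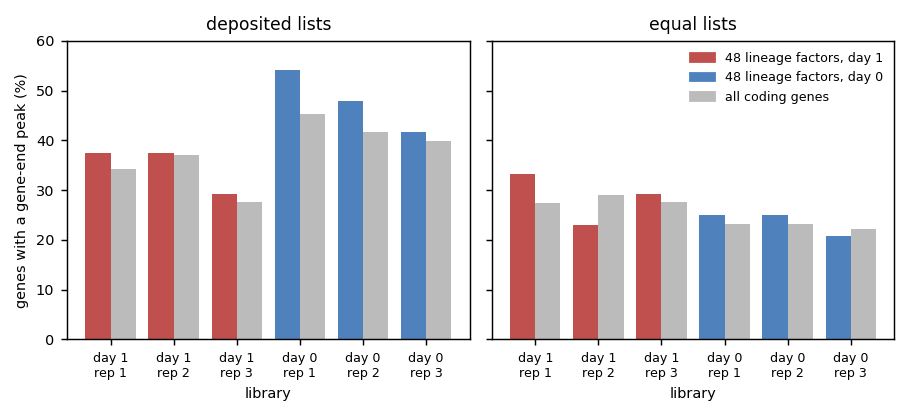
Share of genes (%, vertical axis from 0) with a gene-end peak in each library, for the 48 factors on day 1 (red) and day 0 (blue) and for all coding genes (grey). In the deposited lists (left) every day 0 bar of the factors is above every day 1 bar. In the equal lists (right) the days overlap for the factors, while every day 1 bar of all coding genes is above every day 0 one.

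No member had a gene-end peak in every day 1 library and no day 0 library (0 of 48, against 0.105% of coding genes). The reverse held for 2 members (4.17%, against 2.41%), Tbx15, a T-box factor of limb and skin mesenchyme, and Dlx5, a distal-less factor of bone and limb. Both peaks were low. At the Tbx15 gene end (chr3:99240561-99241247) the day 0 summits held 13, 9 and 9 fragments. At the Dlx5 gene end (chr6:6881621-6881980) they held 8, 10 and 7 fragments. In the equal lists neither gene end was called in any library, and no member changed between every library of one day and none of the other (background 1.57% for day 1 and 0.283% for day 0).

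**Figure D2:**
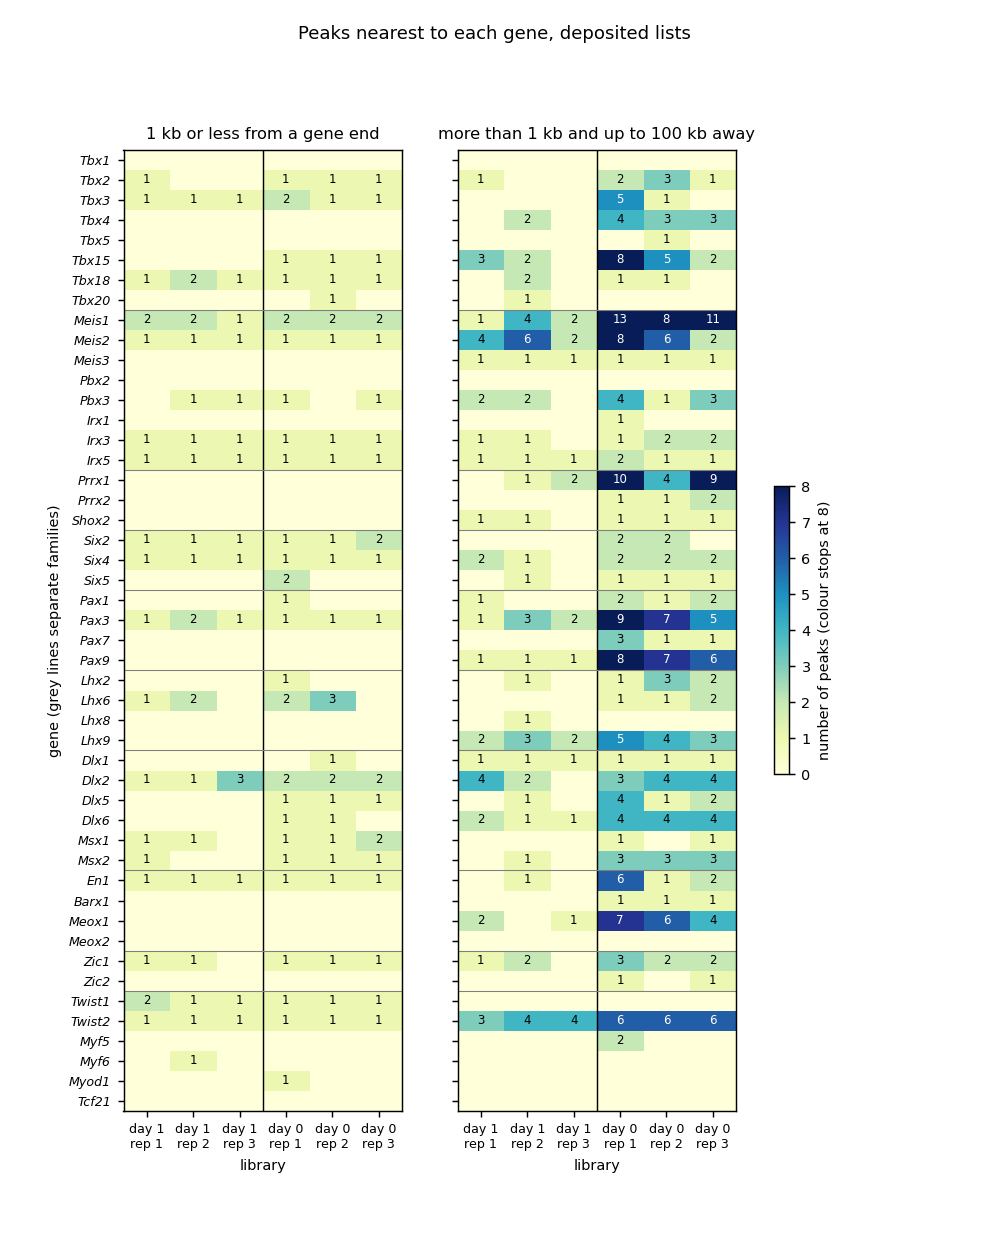
Number of peaks of the deposited lists nearest to each of the 48 genes (rows, by family) in each library (columns), at gene ends (left) and farther away up to 100 kb (right). Gene-end counts stay at 3 or fewer, while the day 0 columns on the right hold up to 13 peaks a gene.

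Start sites were looked at separately. Of the 34 members with a window in the promoter table, 9 had a peak over it in every day 1 library of the deposited lists (26.5%, against 29.5% of coding genes) and 17 in every day 0 library (50%, against 41.8%). The 9 were Tbx18, Meis3, Irx3, Six2, Six4, Pax9, En1, Twist1 and Twist2, and all of them had a peak in all 6 libraries (26.5%, against 29.1%). Pax9 and Meis3 belong here although they had no gene-end peak, because their annotated spans begin before this start. No window was under a peak in every day 1 and no day 0 library (background 0.0172%). Only Dlx1 had the reverse (2.94%, against 2.00%), and its nearest day 1 summits stood 247, 267 and 248 bases from the start, against 242, 251 and 218 on day 0. Of the 34, 5 had a peak over the window in every day 1 library of the equal lists (14.7%, against 26.5% of coding genes), 6 in every day 0 library (17.6%, against 22.1%) and 4 in all 6 (11.8%, against 19.9%). Dlx1 was again day 0 only there (2.94%, against 0.223%), and no window was day 1 only (background 1.55%). The Dlx1 region itself was called in all 6 libraries with relative heights of 0.833, 0.909 and 1.15 on day 1, against 0.894, 1.12 and 1.08 on day 0.

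Relative height means the fragments at a summit divided by the library's median over the 9136 regions called in all 6 libraries. Those medians were 18, 22 and 13 fragments on day 1, against 42.5, 32 and 24 on day 0, so a value of 1 is a typical shared region in each library. Called peaks had a 5th percentile of 0.278, 0.227 and 0.462 in the day 1 libraries, and the lowest values listed were 0.222, 0.182 and 0.385. In the equal lists the lowest values were 0.444, 0.409 and 0.385 on day 1, against 0.518, 0.531 and 0.583 on day 0. Lists of equal length thus reached lower relative heights on day 1 than on day 0.

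Peaks were next merged across libraries into regions to ask which sites were listed on 1 day alone. Of the 208 regions nearest to the members, 0 were called in every day 1 and no day 0 library (day 1 only), against 0.589% of all 59594 regions within 100 kb of a coding gene. Another 32 were day 0 only (15.4%, against 16.6%), and 25 were called in all 6 libraries (12.0%, against 14.7%). A further 81 were called in 1 library (38.9%, against 34.2%). Gene ends held 33 of the 208 regions and the other 175 lay farther away. Of the 175, 30 were day 0 only (17.1%, against 19.5%), 11 were in all 6 libraries (6.29%, against 6.86%) and 0 were day 1 only (against 0.702%). The members' shares were near the background in each class. Allowing a missing library, a Tbx15 region 55.9 kb inside the gene became day 1 only without day 1 replicate 3, and a Meis2 region did so without day 0 replicate 1, which gives 1 day 1 only region in each case. In the equal lists 67 regions belonged to members, of which 2 were day 1 only (2.99%, against 5.73%), 6 day 0 only (8.96%, against 8.05%) and 14 in all 6 libraries (20.9%, against 24.4%). Of the 48 that lay farther than 1 kb, 2 were day 1 only (4.17%, against 6.46%), 6 day 0 only (12.5%, against 12.5%) and 7 in all 6 libraries (14.6%, against 11.6%). Without day 1 replicate 1 the equal lists gave 4 day 1 only regions. Without day 1 replicate 3 and with longer lists they gave 4 day 1 only and 11 day 0 only regions.

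The 32 day 0 only regions belonged to 19 members. Their mean relative heights on day 0 ran from 0.228 to 1.05 with a median of 0.475, against a median of 0.474 over all 9876 day 0 only regions. Of the 32, 4 lay below the 5th percentile of called peaks in day 1 replicate 1, 0 below that of replicate 2 and 14 below that of replicate 3. These are 12.5%, 0% and 43.8% of the 32, against 6.02%, 0.861% and 47.5% of all day 0 only regions. The part of depth in these calls was not tested.

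**Figure D3:**
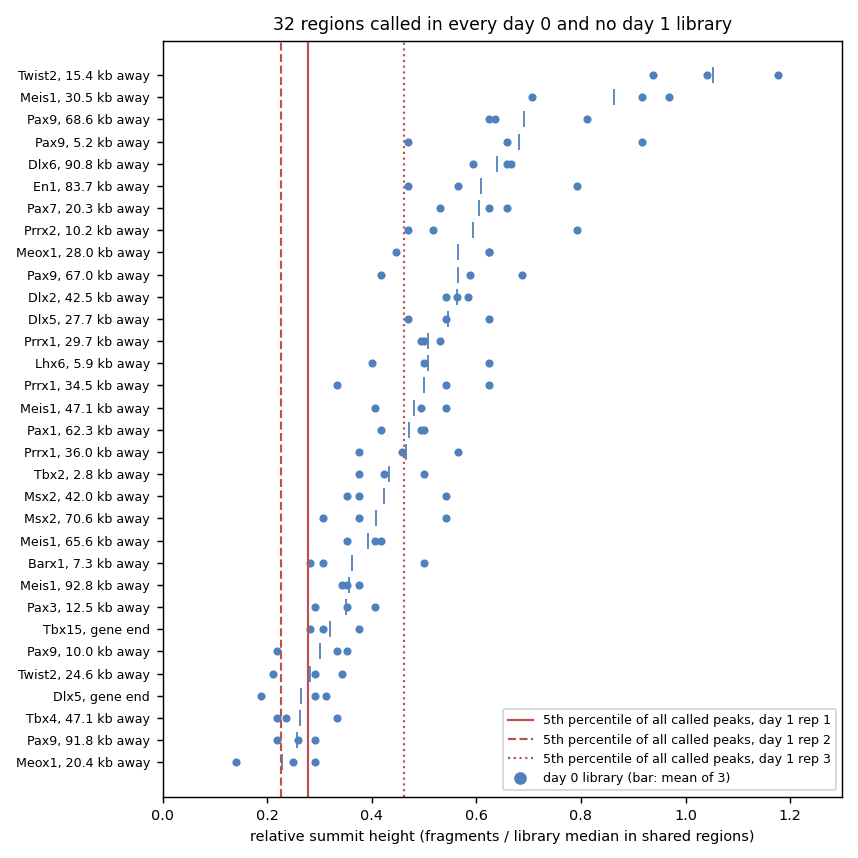
Relative summit height (horizontal axis) of the 32 regions of the factors called in every day 0 and no day 1 library, with 1 point per day 0 library and a bar at their mean; red lines mark the 5th percentile of called peaks in each day 1 library. The Twist2 and Meis1 regions at the top lie right of all 3 lines in every day 0 library, and the lowest regions reach the lines.

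Among the T-box factors, which control limb, heart and skin patterning, the gene ends of Tbx3 and Tbx18 were open in every library. Tbx3 and Irx5 had the 2 highest gene-end summits of all members in each day 1 library. That of Tbx3 (chr5:119670102-119671126) stood at 2.56, 2.05 and 2.08 on day 1, against 1.79, 2.12 and 1.67 on day 0. The ranges overlapped, and the log2 difference of 0.26 was not called by limma (adjusted p = 0.314). Tbx18, a factor of mesenchymal and epicardial cells, had 1.17, 1.14 and 1.38 on day 1, against 1.34, 1.03 and 1.21 on day 0. The other T-box genes had peaks mostly in the deeper day 0 libraries. Tbx2 had a gene-end peak in 1 day 1 library and all day 0 libraries, and a day 0 only region 2.84 kb beyond its gene with 0.424, 0.375 and 0.5 on day 0. Its neighbour Tbx4, a hindlimb factor, had no gene-end peak and a day 0 only region 47.1 kb downstream with 0.235, 0.219 and 0.333. Tbx5, its forelimb counterpart, had a single peak in a single library.

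Tbx15 held 13 regions, of which 7 were called in 1 library. Its strongest lay 12.9 kb inside the gene (chr3:99253054-99253837), with 1.22 and 1.05 in day 1 replicates 1 and 2 and no peak in replicate 3, against 1.18, 1.12 and 1.12 on day 0. Where it was listed on day 1, its height was thus near that of day 0. The region 55.9 kb inside the gene had 0.556 and 0.364 in day 1 replicates 1 and 2 and no peak in the other 4 libraries. Tbx20, a heart factor, had a gene-end peak in 1 day 0 library. Tbx1 had no region at all, but the lists used here hold no summit over a stretch of 896 kb with 26 coding genes around it.

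The TALE homeobox family, in which Meis and Pbx proteins act as DNA-binding partners of Hox proteins, held 9 of the 25 regions called in all 6 libraries. It had 48 regions in total, and 14.7% of all regions were called in all 6 libraries. Meis1 had the most regions of any member, 18, with 4 of them day 0 only, beside 16.6% of all regions. Its upstream gene-end region had 1.39, 1.23 and 1.15 on day 1, against 1.01, 0.906 and 0.958 on day 0, so the day 1 libraries were the higher ones and the ranges did not overlap. The log2 difference of 0.39 (SE 0.21) was not called (limma adjusted p = 0.222, against an unadjusted p of 0.0658). Inside the gene, 29.8 kb from the start (chr11:18988774-18989425), a day 0 only region had 0.706, 0.969 and 0.917, from 30, 31 and 22 fragments. Its day 0 peaks also ranked within the equal lists, which include no day 0 peak below a relative height of 0.518. Those lists are parts of the deposited ones, so no day 1 peak could be added there. The other 3 day 0 only regions of Meis1 were lower, with 0.494, 0.406 and 0.542 at 91.4 kb and 0.353, 0.406 and 0.417 at 64.9 kb from the start, and 0.353, 0.344 and 0.375 at 92.8 kb from the upstream end. At the start itself Meis1 had 1.00 and 1.5 in day 1 replicates 1 and 2 and no peak in replicate 3, against 1.01, 0.812 and 0.792 on day 0. A region 135 kb from the start, inside the gene, was called in all 6 libraries. It had 0.778, 0.591 and 0.846 on day 1, against 0.682, 0.469 and 0.5 on day 0. In the equal lists, Meis1 peaks farther than 1 kb numbered 1, 1 and 2 on day 1, against 3, 1 and 1 on day 0. In the deposited lists they numbered 1, 4 and 2 on day 1, against 13, 8 and 11 on day 0. Distal Meis1 peaks of the deposited lists were thus listed mainly on day 0, and the start-side ones on both days. Regions of all coding genes were split likewise in those lists. Day 0 only calls made up 19.5% of farther regions, against 5.93% of gene-end ones. Calls in all 6 libraries made up 6.86% and 43.6%. Depth and day cannot be told apart in these calls.

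Meis2 had 14 regions and showed both directions. Its gene-end region had 1.11, 1.5 and 1.38 on day 1, against 1.34, 1.16 and 1.12 on day 0. A region 19.4 kb inside the gene (chr2:116044956-116045392) had 0.611, 0.591 and 0.692 on day 1, against 0.188 in day 0 replicate 1 and no peak in the other 2 day 0 libraries. It was day 1 only in the equal lists. A region 94.1 kb inside (chr2:115970228-115970940) went the other way, with 0.444 and 0.409 in day 1 replicates 1 and 2 and no peak in replicate 3, against 0.871, 0.750 and 0.875 on day 0. It was day 0 only in the equal lists, where the day 1 peaks fell below the list's end. These are presence calls and were not tested.

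Irx5, an Iroquois factor, gave the only called increase among the members. At its gene end (chr8:92357390-92357871) the summits held 36, 47 and 27 fragments on day 1, against 50, 49 and 33 on day 0. Divided by each library's median over the shared regions, these summits were 2.00, 2.14 and 2.08 on day 1, against 1.18, 1.53 and 1.38 on day 0, with means of 2.07 ± 0.0684 and 1.36 ± 0.178 (SD, n = 3 each). All 3 day 1 libraries were above all 3 day 0 libraries. The log2 difference was 0.61 (SE 0.17, limma adjusted p = 0.00993). Without day 0 replicate 1 it was 0.51 with an adjusted p of 0.0871, and scaled per 1000000 fragments 0.40 with an adjusted p of 1.00, neither of which was called at the threshold of 0.05. Over all alternatives the adjusted p ran from 0.00661 to 1.00. Another Irx5 region 1.55 kb away had 1.94, 1.82 and 1.54 on day 1, against 1.69, 1.81 and 1.54 on day 0 (log2 difference 0.07, adjusted p = 0.857), and the difference between the 2 regions was not tested. The neighbouring Irx3 start had 1.28, 1.05 and 1.00 on day 1, against 1.22, 1.38 and 1.12 on day 0 (log2 difference -0.17, adjusted p = 0.661).

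Of the other TALE members, Meis3 had 1 region, at its start, with 0.556, 0.545 and 0.846 on day 1, against 0.706, 0.812 and 0.875 on day 0. Pbx3, a partner of Meis proteins, had a region 1.18 kb from its gene with 1.06, 0.955 and 1.15 on day 1, against 1.13, 1.16 and 1.29 on day 0. Neither was called. Irx1 had 1 peak in 1 library. Pbx2 lies in a stretch of 1947 kb with 115 coding genes over which the lists used here hold no summit, so no value is given for it.

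**Figure D4:**
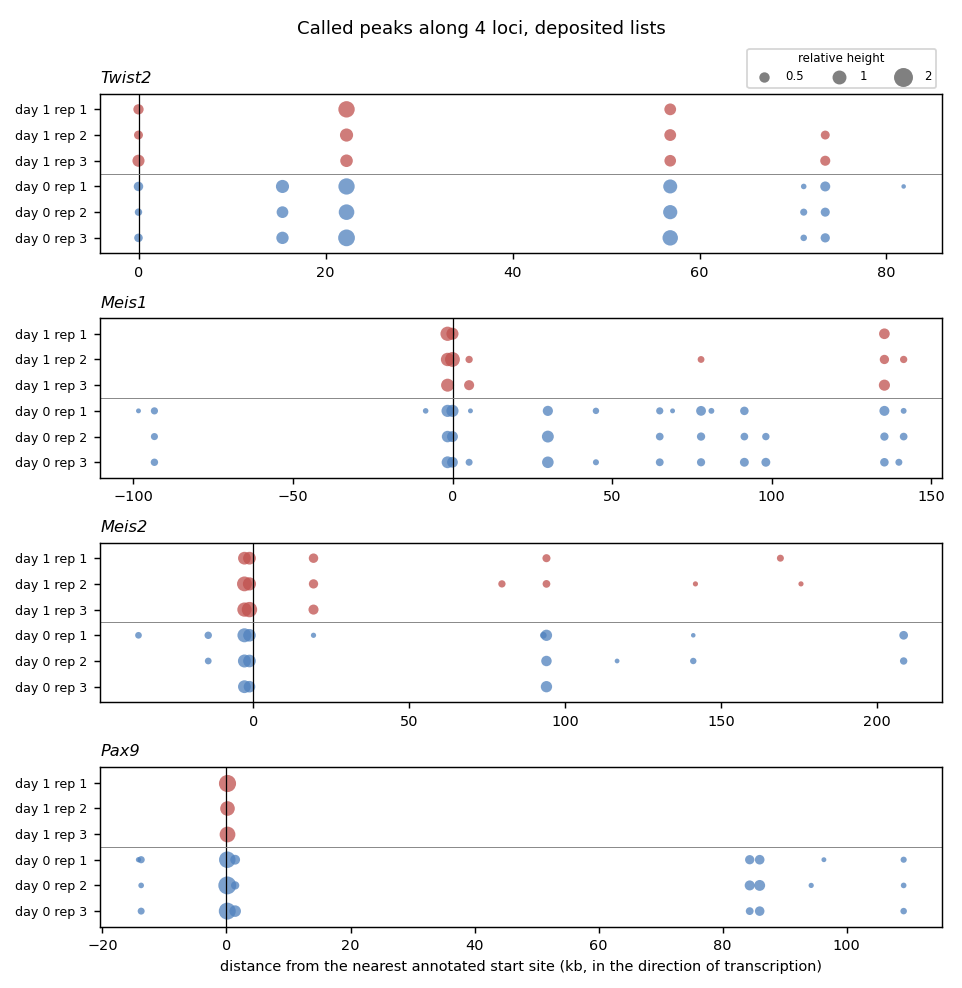
Called peaks of the deposited lists along Twist2, Meis1, Meis2 and Pax9; the horizontal axis is the distance from the nearest annotated start (kb), rows are libraries with day 1 (red) above day 0 (blue), and circle area is the relative summit height. Peaks at or near the starts stand in all rows, and most distal circles of Meis1 and Pax9 stand in day 0 rows.

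Prrx1, Prrx2 and Shox2, homeobox factors of limb and other mesenchyme, had no gene-end peak in any library. Prrx1 nevertheless held 13 regions, 3 of them day 0 only, beside 16.6% of all regions. These had 0.565, 0.375 and 0.458 on day 0 at 36.0 kb downstream, 0.541, 0.625 and 0.333 at 33.0 kb and 0.494, 0.531 and 0.5 at 28.2 kb inside the gene from the start. Its annotated start lay under a peak in 0 of 3 day 1 and 2 of 3 day 0 libraries. A region 1.44 kb inside the gene from the start had 0.769 in day 1 replicate 3 only. In the equal lists Prrx1 had peaks in day 1 replicate 3 alone. A region 61.0 kb inside had 0.227 and 0.692 in day 1 replicates 2 and 3, against 0.212, 0.250 and 0.333 on day 0. Prrx2 had a day 0 only region 25.7 kb inside the gene from its start with 0.518, 0.469 and 0.792. Shox2 had a region 3.90 kb upstream with 0.500 and 0.455 in day 1 replicates 1 and 2, against 0.306, 0.375 and 0.375 on day 0.

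The factors Six2, Six4 and Six5, which act with Eya proteins in muscle, kidney and craniofacial precursors, had open gene ends at Six2 and Six4 in every library. Six2 had 1.28, 0.955 and 0.846 on day 1, against 0.753, 1.12 and 0.917 on day 0, and Six4 had 0.889, 0.909 and 1.15 on day 1, against 0.965, 0.906 and 0.875 on day 0. A Six4 region 34.0 kb upstream had 0.444 in day 1 replicate 1 only, against 0.894, 1.03 and 0.875 on day 0, and was day 0 only in the equal lists. Six5 lies between Dmpk and Bhmg1, whose ends stand 723 and 278 bases from its own, so its peaks cannot be given to it alone. It had gene-end peaks in 1 day 0 library and a region 1.34 kb inside with 1.00 in day 1 replicate 2, against 0.824, 1.06 and 0.833 on day 0.

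The PAX factors of somite and sclerotome had 27 regions at 4 genes in the deposited lists, of which 8 were day 0 only, at least 1 at each gene, beside 16.6% of all regions. Their 8 regions in the equal lists included 0 day 0 only ones, beside 8.05% of all. Pax3, which acts in the dermomyotome, had 11 regions and the lowest log2 difference of any member region called in all 6 libraries. At its gene end (chr1:78196427-78197505) the relative heights were 0.667, 0.545 and 0.846 on day 1, against 1.04, 0.969 and 1.42 on day 0, with means of 0.686 ± 0.151 and 1.14 ± 0.242 (SD, n = 3 each). The ranges did not overlap. The log2 difference was -0.74 (SE 0.23, limma adjusted p = 0.0251). It was -0.58 without day 1 replicate 2 (adjusted p = 0.115), -0.80 without day 0 replicate 1 (0.0539) and -0.57 without day 0 replicate 3 (0.211), none of which was called. Scaled per 1000000 fragments it was -0.95 (adjusted p = 0.660), and with the authors' fold enrichment in place of fragments -0.43 (adjusted p = 0.181). The adjusted p ran from 0.00772 to 0.660 over all alternatives.

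The distal regions of Pax3 varied. One 43.2 kb beyond the gene (chr1:78057890-78058507) had 0.227 and 0.846 in day 1 replicates 2 and 3 and no peak in replicate 1, against 1.25, 1.31 and 1.58 on day 0. A day 0 only region 12.5 kb beyond the gene had 0.353, 0.406 and 0.292. One 7.26 kb inside had 0.500 and 0.462 in day 1 replicates 2 and 3, against 0.329, 0.344 and 0.417 on day 0, so it was no lower where listed.

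Pax9, the sclerotome factor, had 9 regions, and 5 of them were day 0 only, the most of any member, beside 16.6% of all regions. The start region (chr12:56695334-56696227), which covers most of the sequence printed for Pax9, was among the highest member regions, with 2.00, 1.45 and 1.69 on day 1, against 1.86, 2.19 and 1.96 on day 0. The ranges overlapped, and the log2 difference of -0.23 was not called (adjusted p = 0.403). A region 1.4 kb inside the gene had 0.659, 0.469 and 0.917 on day 0 and no day 1 peak. Of the distal ones, those 84.4 and 86.0 kb beyond the start had 0.588, 0.688 and 0.417, and 0.635, 0.812 and 0.625, on day 0. The remaining 2, at 13.8 kb upstream and 109 kb beyond the start, had 0.353, 0.219 and 0.333, and 0.259, 0.219 and 0.292. Pax1, its paralogue, had a day 0 only region 62.3 kb upstream with 0.494, 0.5 and 0.417. Pax7, the satellite cell factor, had no gene-end peak and a day 0 only region 20.3 kb downstream with 0.659, 0.531 and 0.625.

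The 4 LIM homeobox genes held 13 regions, 1 of them called in all 6 libraries, beside 14.7% of all regions. Lhx8 had 1 peak in 1 library. Lhx9 had a region 1.10 kb upstream of its start (chr1:138843397-138843899) with 0.667, 0.773 and 0.615 on day 1, against 0.565, 0.469 and 0.542 on day 0. It was called in all 6 deposited lists and was day 1 only in the equal lists, where the day 0 peaks ranked too low. Its ranges did not overlap, and the log2 difference of 0.38 was not called (adjusted p = 0.361). Lhx6 had a day 0 only region 4.01 kb inside the gene from a start with 0.400, 0.5 and 0.625, and a gene-end peak in 2 libraries of each day. Lhx2 had a region at a start with 0.227 in day 1 replicate 2 only, against 0.565, 0.438 and 0.5 on day 0.

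The DLX and MSX factors of limb, bone and neural crest had 28 regions, of which 6 were day 0 only, beside 16.6% of all regions. At Dlx2 the gene-end region called in all 6 libraries lay downstream, with 1.17, 0.636 and 1.00 on day 1, against 0.824, 1.00 and 0.958 on day 0. A Dlx2 region 97.6 kb upstream (chr2:71644071-71644497) had 0.556 and 0.318 in day 1 replicates 1 and 2 and no peak in replicate 3, against 1.13, 1.41 and 1.29 on day 0. A day 0 only region 42.5 kb upstream had 0.541, 0.562 and 0.583. Dlx6 and Dlx5 are neighbours, and their sites were assigned by the nearer gene end. The Dlx6 region 61.2 kb away (chr6:6801606-6802273) had 0.833, 0.545 and 1.08 on day 1, against 1.13, 1.12 and 1.21 on day 0, without overlap. Its log2 difference of -0.55 (SE 0.23) was not called (adjusted p = 0.105), and was called at -0.77 without day 1 replicate 3 (adjusted p = 0.0201).

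Another Dlx6 region 32.7 kb away had 0.222 in day 1 replicate 1 only, from 4 fragments, against 0.988, 0.938 and 1.25 on day 0, and was day 0 only in the equal lists. One more, 90.8 kb away, was day 0 only in the deposited lists with 0.659, 0.594 and 0.667. Its day 0 peaks also ranked within the equal lists, where no day 1 peak could be added. Dlx5 had a day 0 only region 27.7 kb away with 0.541, 0.469 and 0.625, in addition to its low gene-end peak with 0.188, 0.312 and 0.292. Msx1 had a start region with 0.722 and 0.409 in day 1 replicates 1 and 2, against 0.659, 0.562 and 0.5 on day 0. Msx2 had one with 0.500 in day 1 replicate 1 only, against 0.541, 0.562 and 0.458 on day 0. Its 2 day 0 only regions, 42.0 and 70.6 kb upstream, had 0.353, 0.375 and 0.542, and 0.306, 0.375 and 0.542.

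En1 marks the central dermomyotome, from which brown fat, muscle and dermis of the back arise. Its start had 0.889, 0.318 and 0.846 on day 1, against 0.682, 0.750 and 0.667 on day 0. Day 1 replicate 2 was the lowest and the other day 1 libraries the highest. The log2 difference was -0.17 (adjusted p = 0.761), and 0.31 without day 1 replicate 2 (adjusted p = 0.483). A day 0 only region 83.7 kb downstream had 0.565, 0.469 and 0.792. Meox1, a somite factor, had no gene-end peak and 7 regions, of which the 2 day 0 only ones had 0.447, 0.625 and 0.625 at 28.0 kb, and 0.141, 0.250 and 0.292 at 20.4 kb. Barx1 had a single region, 7.29 kb upstream and day 0 only, with 0.306, 0.281 and 0.5. Meox2 had no region within 100 kb.

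Zic1, the brown fat marker, had a start region called in all 6 libraries (chr9:91365190-91366245). An end of Zic4 lies 137 bases from that of Zic1, and the genes overlap, so a peak here cannot be given to either gene alone. The region had 1.22, 1.36 and 0.769 on day 1, against 1.01, 0.906 and 0.875 on day 0. Day 1 replicates 1 and 2 were the highest and replicate 3 the lowest, and the log2 difference of 0.23 was not called (adjusted p = 0.574). In day 1 replicate 3 the summit lay 329 bases from the Zic1 start and was nearer to Zic4, which is why that library counts as without a Zic1 gene-end peak, while the other 5 summits lay 140 to 232 bases from the start. Zic2 had 1 region, in 2 day 0 libraries.

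Twist2, a basic helix-loop-helix factor of dermal and mesenchymal progenitors, was the member with the most regions in all 6 libraries, 3 of 7. Of all regions, 14.7% were called in all 6. The one 10.3 kb beyond the gene (chr1:91856944-91858663) had 17, 21 and 12 fragments on day 1, against 57, 44 and 39 on day 0. Relative heights were 0.944, 0.955 and 0.923 on day 1, against 1.34, 1.38 and 1.62 on day 0, with means of 0.941 ± 0.0161 and 1.45 ± 0.155 (SD, n = 3 each). All day 1 libraries were below all day 0 libraries. The log2 difference was -0.62 (SE 0.20, limma adjusted p = 0.0287). It was -0.67 without day 0 replicate 1 (adjusted p = 0.0660), -0.65 without replicate 2 (0.0763) and -0.53 without replicate 3 (0.168), none of which was called. Scaled per 1000000 fragments it was -0.83 (adjusted p = 0.851), and with fold enrichment -0.26 (adjusted p = 0.485). Over all alternatives the adjusted p ran from 0.0258 to 0.851.

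The Twist2 region 22.2 kb inside the gene (chr1:91823300-91824121) had 1.83, 1.18 and 1.08 on day 1, against 1.81, 1.66 and 1.92 on day 0. Day 1 replicate 1 was as high as day 0 and the other day 1 libraries were lower. The log2 difference of -0.43 was not called (adjusted p = 0.126), and was called at -0.67 without day 1 replicate 1 (adjusted p = 0.0124). The Twist2 start, whose sequence is printed with the others, had 0.722, 0.545 and 1.00 on day 1, against 0.612, 0.375 and 0.5 on day 0, with a log2 difference of 0.59 that was not called (adjusted p = 0.143). Between them, 15.4 kb inside (chr1:91816459-91817064), stood the highest day 0 only region of all members, with 50, 30 and 25 fragments and relative heights of 1.18, 0.938 and 1.04. Its day 0 peaks also ranked within the equal lists, where no day 1 peak could be added. The other day 0 only region, 24.6 kb beyond the gene, was low, with 0.212, 0.344 and 0.292. A region 26.9 kb beyond the gene had 0.545 and 0.692 in day 1 replicates 2 and 3 and no peak in replicate 1, against 0.682, 0.562 and 0.583 on day 0. In the equal lists it was called in 2 day 1 and 0 day 0 libraries. The log2 difference at the start thus differed in sign from those 22.2 kb inside and 10.3 kb beyond the gene. Only the one 10.3 kb beyond was called, and the contrast with the start was not tested.

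Twist1, which restrains the thermogenic programme in brown fat, had only a start region, with 0.667, 0.682 and 0.846 on day 1, against 1.08, 0.875 and 0.750 on day 0 (log2 difference -0.30, adjusted p = 0.459). Of the muscle regulatory factors, Myf5 had 2 regions in 1 day 0 library and no peak over its start, Myf6 had 1 peak in 1 day 1 library, and Myod1 had 1 peak in 1 day 0 library. Tcf21 had no region within 100 kb, and the summits closest to it, 85.8 kb away, were nearer to Tbpl1.

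Across the 25 member regions called in all 6 libraries, summit height was called higher on day 1 in 1 (4%, against 7.91% of 9136 regions) and lower in 2 (8%, against 6.92%). The members' shares were near the background in both directions. The median log2 difference was 0.05 for the members and 0.06 for all regions. At an unadjusted p under 0.05 there were 6 member regions and 2433 of all. Leaving out day 0 replicate 1 left 0 called in either direction, leaving out day 0 replicate 3 left 0 lower, and leaving out day 1 replicate 2 or day 0 replicate 2 left 1 lower. Without day 1 replicate 1 or day 1 replicate 3 there were 3 lower.

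**Figure D5:**
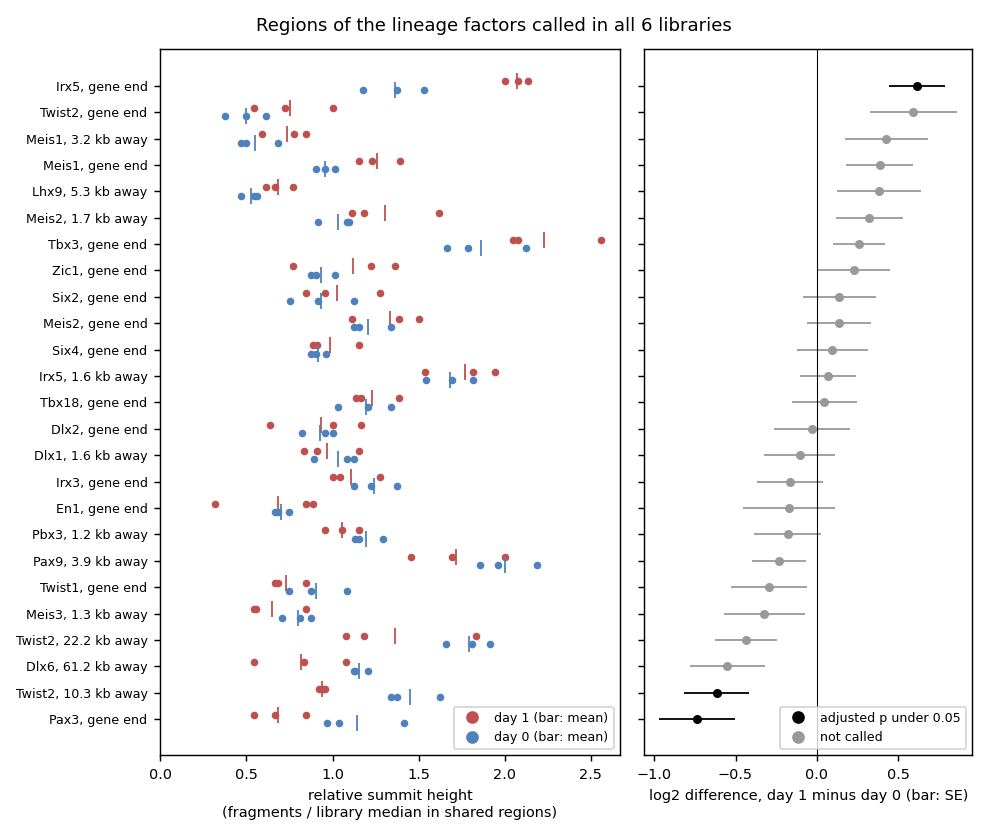
The 25 regions called in all 6 libraries, ordered by difference, with relative summit heights per library on the left (day 1 red, day 0 blue, bars at the means) and the log2 difference of day 1 minus day 0 with its SE on the right. The black points are the called regions, Irx5 at the top and Twist2 and Pax3 at the bottom.

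Related factors outside the list gave a comparison with the same families. Of 65 such genes, 7 had a gene-end peak in every day 1 library, 13 in every day 0 library and 41 in none of the deposited lists, beside 24.3%, 36.2% and 49.8% of coding genes. Within the equal lists 7 had one in every day 1 library, 4 in every day 0 library and 55 in none, beside 21.2%, 17.6% and 63.4% of coding genes. They held 236 regions in the deposited lists, of which 1 was day 1 only and 33 were day 0 only, beside 0.589% and 16.6% of all regions. Of their 57 regions in the equal lists, 5 were day 1 only and 4 day 0 only, beside 5.73% and 8.05% of all. The day 1 only region lay inside Eya4, an eyes-absent cofactor, 68.7 kb from its end, with 0.722, 0.591 and 1.08 on day 1 and no day 0 peak. Of their 18 regions called in all 6 libraries, 3 were called higher and 1 lower on day 1, beside 7.91% higher and 6.92% lower of all 9136. The gene end of Pknox2, a TALE factor, was higher by 0.92 on the log2 scale (limma adjusted p = 0.000833). A region 2.78 kb from Lhx1 was higher by 1.28 (adjusted p = 0.00178), and one 4.31 kb from Scx, a tendon factor, by 0.92 (adjusted p = 0.00137). The lower one was another Pknox2 region, 99.7 kb away, with a log2 difference of -0.69 (adjusted p = 0.00712).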

How the data were processed

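ATAC-seq peak lists of 6 libraries, 3 per day, were analysed on mm10. The submitters' processing notes name HOMER 4.11, DiffBind 3.8.4, MACS2 2.2.7.1, deepTools 3.5.1, SAMtools 1.15.1, Bowtie2 2.4.4 and Trim Galore 0.6.7, not the step each served. Per the file headers, peaks were called per library with MACS2 2.2.7.1 on paired-end fragments, without a control library, at q 0.05, keeping 1 fragment where several had the same ends and taking the local background from 10000 bp. The command also names a 100 bp shift and a 200 bp extension.

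The signal at each summit (pileup) was deposited as whole fragments and varies with depth. The deposited −log10 p and −log10 q columns and the fold enrichment, a ratio of pileup to local background, are the authors' own per-peak values. They served to rank and filter peaks within a list. Fold enrichment also chose, among the peaks of all libraries in a region, the summit that placed it, and it replaced pileup in an alternative. Lengths are in bp, per the file headers.

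All autosomes and both sex chromosomes were included. Genes were the 21883 protein-coding genes of the RefSeq GRCm38.p6 table, the assembly that mm10 names. Peaks that shared 1 bp or more formed a region, and each region took the gene end nearest to the summit of its highest fold enrichment. Gene-end calls per library used each peak's own summit, so a region and a peak of it can fall on different sides of 1 kb. An end of another coding gene lay within 1 kb of an end of Pax9, Pbx2, Shox2, Six5 and Zic1, and Mnat1 overlaps Six4, so peaks there are uncertain between the genes. Strand and start sites came from the RefSeq promoter table for 34 members. For the other 14, places are given by distance to the gene only.

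Summit heights in the 9136 regions called in all 6 libraries were compared with limma 3.58.1 (R 4.3.3, trend and robust, statmod 1.5.0) on log2 fragments, each library centred on its median, with Benjamini-Hochberg adjustment over all 9136 regions and a threshold of 0.05. Presence calls have no test, since the smallest two-sided p of an exact permutation test is 0.1 with 3 libraries a day. Tables were made with Python 3.11.15 and pandas 2.3.3.

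The members, gene lists and alternatives were chosen with earlier results of these data known. Values per library are given for members with a day 1 only or day 0 only region in either kind of list, for members with a called summit, and for the 6 members with the most regions. Others that are named are members described for completeness, listed cell type markers or neighbouring genes. Among the related genes, values of single regions are given for at most 4. Alternatives covered list length, ranking, distances, q cutoff, libraries required, scaling, pseudocount, a filter on low summits and each library left out.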

Additional observations from a re-analysis of the deposited data

How the results depend on the processing

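Presence calls moved with the number of libraries required and with list length. With 2 of 3 libraries enough, the deposited lists gave 1 day 1 only and 58 day 0 only regions, and the equal lists 15 members with a gene-end peak on day 1, 11 on day 0 and 6 day 1 only regions. Equal lists of 6278 peaks gave 5 and 2 members and 2 day 0 only regions. Equal lists of 20069 peaks without day 1 replicate 3 gave 14 members on each day, 4 day 1 only and 11 day 0 only regions. Day 1 only regions of the equal lists numbered 0 at a −log10 q of at least 5 and 6 when ranked by fold enrichment. Counting any peak within 1 kb of a member's own end, an alternative chosen after seeing the data, gave 15 members on day 1 and 20 on day 0 in the deposited lists, and 11 and 8 in the equal lists. Leaving out each library gave 13 to 16 members with a gene-end peak on day 1, 19 to 21 on day 0, 0 to 1 day 1 only and 34 to 47 day 0 only regions in the deposited lists. In the equal lists the ranges were 9 to 14, 7 to 14, 2 to 4 and 6 to 11.

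Summit heights depended on scaling. Scaled per 1000000 fragments, the median of all regions was -0.15 in place of 0.06 on the log2 scale, 0 member regions were called in either direction, and 27 of all were called higher and 52 lower. With fold enrichment, 0 member regions were lower, and 378 of all were higher and 316 lower. With a mean of at least 20 fragments, 406 of the 6439 regions kept were higher and 519 lower. With quantile normalization, 558 of all were higher and 680 lower. In both settings more were lower than higher, unlike in the main fit. Leaving out each library gave 0 to 1 member regions higher and 0 to 3 lower, and 467 to 708 higher and 403 to 673 lower of all. A replicate block left 1 member region higher and 2 lower, and 733 and 633 of all. The labels do not pair the replicate numbers, and deviations of same-numbered libraries correlated at -0.036, 0.054 and 0.0081. Only regions that were not called reversed in sign. Per 1000000 fragments, the log2 difference was -0.12 for Six4, -0.076 for Six2, -0.078 for the Meis2 gene end, -0.15 for the Irx5 region 1.55 kb away and -0.17 for Tbx18. With fold enrichment it was 0.057 for Pax9, 0.19 for Dlx2 and -0.019 for Tbx18, and with the filter on fragments 0.0064 for Dlx2. Leaving out each library gave -0.43 to 0.31 for En1, -0.025 to 0.16 for Six4, -0.032 to 0.28 for Six2, -0.21 to 0.22 for Dlx2, -0.0057 to 0.16 for the Irx5 region and -0.056 to 0.13 for Tbx18. The cause was not tested. Low peaks rest on few fragments, and the median at shared summits was 13 fragments in day 1 replicate 3.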
